A study of Mus musculus with 15 samples.

Results

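Adult mouse liver was among the tissues and cell types whose open chromatin was mapped by DNase-seq in this series, in 8 lists of peaks. The regions open in liver alone are described here. The liver list held 72883 peaks. After touching or overlapping peaks of all 8 lists were joined, it reached 68689 of 237612 merged regions. A region was called liver-specific when it held a liver peak and no peak of the other 7 lists, which gave 18221 regions, or 26.5% of the liver regions (Wilson 95% interval 26.2 to 26.9, counting error only). The remaining 50468 liver regions also held a peak of at least 1 other list.

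DNase-seq reads the ends left where a nuclease cuts chromatin that is free of tightly packed nucleosomes. Such hypersensitive sites mark promoters, enhancers, insulators and other regulatory elements. Promoter sites are often open in many tissues, whereas distal enhancers tend to be open in a single tissue or a few. Liver is made up mainly of hepatocytes, the cells that secrete plasma proteins, make bile and process nutrients and drugs, and it also holds Kupffer cells, sinusoidal endothelium, stellate cells and bile duct cells.

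The liver library came from the whole organ of adult C57BL/6J mice, flash frozen and ground to powder. The other 7 libraries came from adult whole kidney, adult whole heart and adult whole brain of the same strain and handling, a primary culture of skin fibroblasts from adult C57BL/6J mice, cultured C57BL/6J embryonic stem (ES) cells, and preSertoli cells, the precursors of the Sertoli cells of the testis, taken at E13.5 and E15.5 (days of embryonic development). The preSertoli cells were sorted from male embryos heterozygous for a Sox9-ECFP transgene, bred from C57BL/6J fathers and CD-1 mothers. Their nuclei were cut by the cells' own nucleases, whereas DNase I was added in the other 6 libraries, so the way of cutting and the cell type cannot be told apart for the preSertoli lists. Sex and exact age of the adult animals are not stated in the labels, and a whole organ mixes cell types.

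Each list stands for 1 library, so no p-value compares tissues. The spread given below is the range over the 20 chromosomes with liver regions or a counting interval, and neither stands in for replicate animals. The lists ran from 62218 to 96536 peaks, and the number of reads behind them is unknown. A region without a called peak may still be open below the calling threshold. In whole organs, fewer cells with an open region and weaker cutting per cell cannot be told apart. Positions are in mouse build mm9, for which no gene positions or sequence were used here. For that reason the regions carry no gene names, and the liver label was not checked against marker genes.

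Liver-specific regions made up a smaller part of the open length than of the region count. They covered 5.19 Mb, which was 17.9% of the 29.0 Mb under liver peaks. The liver list had the second highest share of regions of its own among the 8 lists. Liver stood at 26.5%, above skin fibroblasts at 24.3%, E13.5 preSertoli cells at 20.7%, heart at 19.0%, brain at 18.4%, kidney at 16.9% and E15.5 preSertoli cells at 16.8%, and below ES cells at 38.8%. When every list was shortened to its 62218 strongest peaks, liver stood at 26.6%, skin fibroblasts at 27.8% and ES cells at 30.4%, which put liver below both.

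Some regions open in every other list lacked a liver peak. There were 1303 regions open in the other 7 lists and without a liver peak, beside 20859 regions open in all 8 lists. The same count was 101 for kidney, 352 for heart, 414 for brain, 576 for ES cells and 2205 for skin fibroblasts. It was 531 at E13.5 and 537 at E15.5 in preSertoli cells. Liver was second only to the fibroblast list, which held the fewest peaks.

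Strength was read from the authors' signal height of each peak, given as a percentile among all liver peaks. A region took the percentile of its strongest liver peak. Liver-specific regions were weaker, with a median percentile of 34.6 against 58.4 for the remaining liver regions, a difference of -23.9 percentile points. The median signal height was 0.0520 in liver-specific and 0.0787 in the remaining regions, and the median −log10 p was 2.05 and 3.20. The direction held on each of the 20 chromosomes, with differences between -28.5 on the X chromosome and -20.1 on chromosome 12. Above the 50th percentile lay 31.9% of the liver-specific regions (Wilson interval 31.2 to 32.6) and 58.4% of the remaining ones, while the background over all liver regions was 51.4%.

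The difference was much smaller once the regions open everywhere were set aside. The 20859 liver regions open in all 8 lists had a median percentile of 80.2 and a median signal height of 0.134. The 29609 regions shared with 1 to 6 other lists had a median percentile of 42.9, which left a difference of -8.32 points for liver-specific regions. Of these shared regions 41.7% lay above the 50th percentile. Strength did not climb step by step with the number of lists. Liver regions found in exactly 2 lists had a median percentile of 45.6, those in 3 lists 40.2, in 4 lists 38.3, in 5 lists 39.3, in 6 lists 41.6 and in 7 lists 47.6. Liver-specific regions were the weakest of these 8 classes, but the range between their 25th and 75th percentile, 16.4 to 56.6, overlapped that of each class with 2 to 7 lists.

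**Figure D1:**
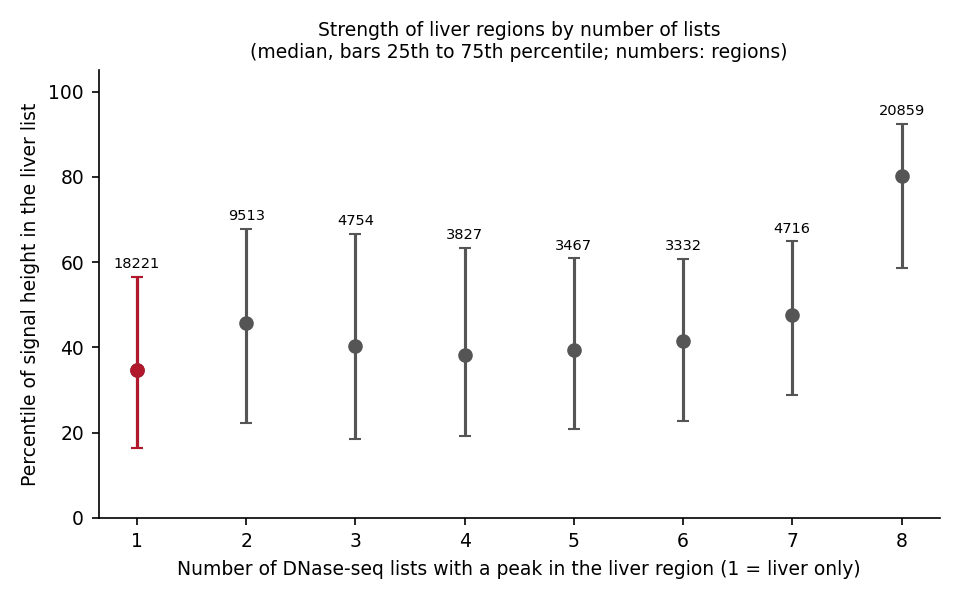
Percentile of signal height in the liver list (vertical axis) for liver regions grouped by the number of DNase-seq lists with a peak there (horizontal axis, where 1 is liver only, in red). Points are medians, bars run between the 25th and 75th percentile and the number above each bar counts regions: liver-specific regions have the lowest median (34.6), classes 2 to 7 lie between 38.3 and 47.6, and regions open in all 8 lists stand apart at 80.2.

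The share of liver-specific regions fell at every step up the liver list. In the weakest bin of 10 percentiles, 2880 of 6503 liver regions were liver-specific, or 44.3% (Wilson interval 43.1 to 45.5). The share was 30.3% between the 40th and 50th percentile, 19.7% between the 70th and 80th and 10.8% between the 80th and 90th. In the strongest bin it was 1.18% (0.951 to 1.45), where 91.5% of regions were open in all 8 lists.

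Compared with the other adult tissues, liver kept more of its own regions among strong peaks. Liver-specific and heart-specific shares were 44.3% and 46.3% in the weakest bin, so liver did not lead there. Between the 70th and 80th percentile of each tissue's own list, the liver share of 19.7% stood against 5.73% in kidney, 4.16% in heart and 6.76% in brain, and ES cells stood at 24.8%. The liver share was above those of the 3 other adult tissues in every bin from the 10th percentile up. The Wilson intervals did not overlap there, but they hold counting error only and no spread between animals or libraries. With lists of equal length, 31.4% of the liver-specific regions lay above the 50th percentile, against 18.4% in kidney, 16.2% in heart, 19.6% in brain and 27.2% in ES cells.

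**Figure D2:**
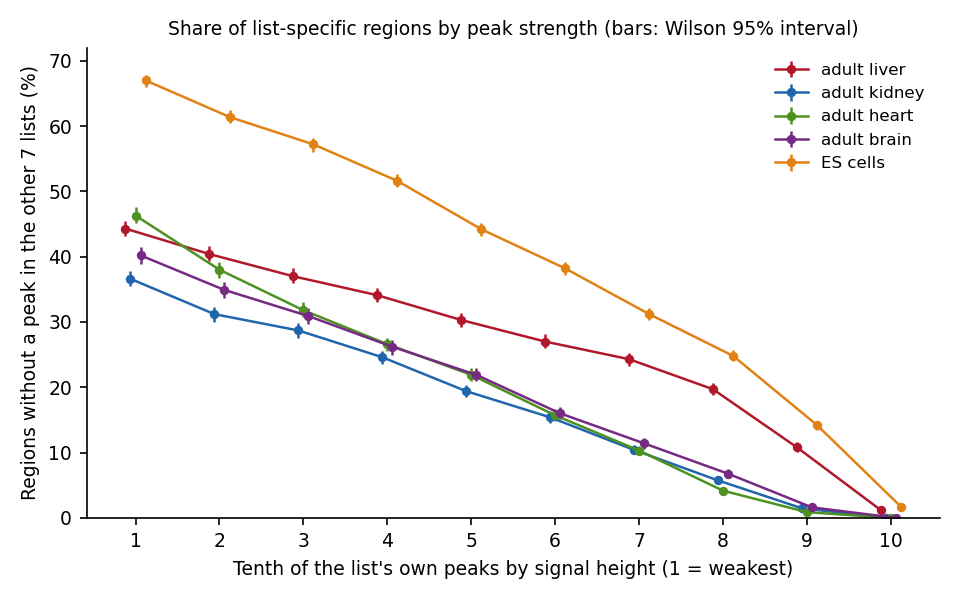
Share of a list's regions without a peak in the other 7 lists (vertical axis, %) by bin of 10 percentiles of that list's own signal height (horizontal axis, weakest bin at the left), for adult liver, kidney, heart, brain and ES cells, with Wilson 95% intervals as bars. The liver line starts at 44.3%, close to heart at 46.3%, stays above kidney, heart and brain in the other bins, and reaches 1.18% in the strongest bin, where kidney, heart and brain are at or near 0.

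Above the 90th percentile of the liver list lay 85 liver-specific regions, or 0.466% of them (Wilson interval 0.377 to 0.576), against 14.2% of the remaining regions and a background of 10.5% over all liver regions. All liver regions at that strength numbered 7233. Of these, 6619 had a peak in each of the 8 lists and 75 had peaks in liver and kidney alone. Above the 90th percentile of their own lists lay 1 kidney-specific region, 5 of skin fibroblasts, 2 of E13.5 preSertoli cells and 163 of ES cells. As shares of each list's specific regions these were 0.00867, 0.0354, 0.0116 and 0.450%. The ES share (Wilson interval 0.386 to 0.524) was thus close to the 0.466% of liver. The number was 0 of 12681 heart-specific regions, which allows a share of up to 0.0237%, 0 of 10994 brain-specific regions, which allows up to 0.0273%, and 0 of 12917 E15.5 preSertoli regions, which allows up to 0.0232%. The 85 strong liver-specific regions lay on 19 chromosomes with at most 8 on any chromosome, and in 84 different windows of 100 kb. No expected number of windows was computed, so this count does not show whether they were scattered. In 15 cases the region was the only liver-specific one in its window. Over all liver-specific regions 20.8% stood alone in their window. Their median distance to the nearest region of another list was 2.56 kb.

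The strongest liver-specific region lay on chromosome 16 from 78473569 to 78474175. Its peak of 607 bp had a signal height of 0.333 and ranked 2594 of 72883 liver peaks, at percentile 96.4. The nearest peak of another list, in heart, was 16.2 kb away. Second came chromosome 16 from 9588351 to 9589059 with a signal height of 0.313 (rank 3150), where the nearest other peak, in brain, lay 15.2 kb away. The third was chromosome 15 from 83986209 to 83987090 with a signal height of 0.303 (rank 3435), in a window with 6 liver-specific and 9 remaining liver regions. These 3 regions were isolated from peaks of the other lists by more than 10 kb each.

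The next liver-specific regions stood closer to peaks of other lists. On chromosome 8 the region from 12711442 to 12712117 had a signal height of 0.288, and a kidney peak lay 3.81 kb away. On chromosome 17 the region from 86326972 to 86328379 had a signal height of 0.287 and, at 1408 bp, was the second widest liver-specific peak. An E15.5 preSertoli peak lay 1.45 kb from it. Places 6 to 10 had signal heights between 0.274 and 0.284. The sixth lay at chr11:80914248-80914809, with an E13.5 preSertoli peak 4.28 kb away, and the seventh at chr10:98847149-98848009, with a heart peak 7.79 kb away. The eighth, at chr12:111358265-111358877, had the closest neighbour of the 10, an E13.5 preSertoli peak at 0.511 kb. The ninth lay at chr6:28454500-28455050 in a window with 5 liver-specific regions, and the last at chr2:169176799-169177656 in a window without remaining liver regions. None of these 10 regions overlapped an H3K27ac domain of E13.5 preSertoli cells.

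The strongest remaining liver regions had higher signal. The first, on chromosome 17 from 39979746 to 39986003, reached a signal height of 1.16 and a liver peak width of 6183 bp. Next came a pair of neighbouring regions on chromosome 11, from 3025145 to 3039295 and from 3051975 to 3074786, whose liver peaks measured 12458 and 22812 bp. These 3 were far wider than the median remaining liver peak of 366 bp. They were followed by narrower regions at chr11:108872767-108873619, with a signal height of 0.855, and at chr9:35112609-35113345, with 0.813. Each of the 5 strongest had a peak in all 8 lists. No filter for repeated sequence was applied here to the deposited peaks, and what these regions hold was not checked.

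Liver-specific peaks were narrower, with a median width of 266 bp against 366 bp for the strongest liver peak of the remaining regions. Against the regions shared with 1 to 6 other lists, whose median was 299 bp, the difference was -33.0 bp. Against all remaining regions it lay between -124 bp on chromosome 8 and -79.5 bp on chromosome 3. Width followed signal height closely in the liver list, with a Spearman correlation of 0.923 across the 72883 liver peaks, which share 1 library. Within bins of equal strength the widths differed much less. The medians were 97.0 bp in liver-specific and 98.0 bp in remaining regions in the weakest bin, and 352 and 334 bp between the 50th and 60th percentile. Between the 20th and 80th percentile liver-specific peaks were the wider ones in each bin, by 5 to 18 bp. Above the 80th percentile they were narrower, with 524 against 563 bp, and in the strongest bin 645 against 816 bp.

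**Figure D3:**
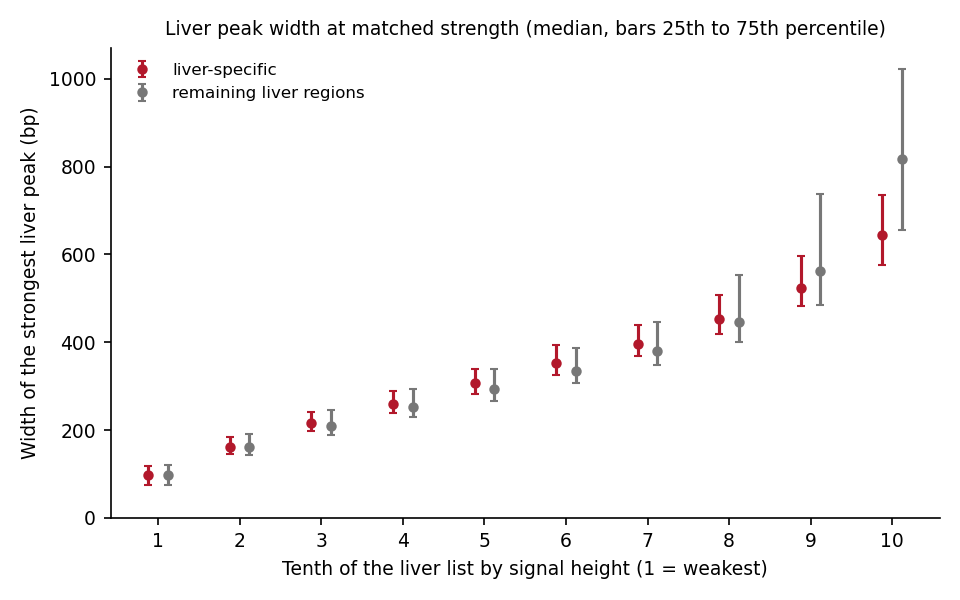
Width in bp of the strongest liver peak of each region (vertical axis) by bin of 10 percentiles of signal height in the liver list (horizontal axis, weakest bin at the left), for liver-specific regions (red) and the remaining liver regions (grey). Points are medians and bars run between the 25th and 75th percentile: both classes climb together from 97.0 and 98.0 bp, and separate in the strongest bin at 645 and 816 bp.

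The widest liver-specific peak covered 1635 bp on chromosome 9 from 74519107 to 74520741. It stood at percentile 87.5 of signal height, in a window of 100 kb with 5 liver-specific regions and no remaining liver region. The nearest peak of another list was 21.0 kb away. The width of the whole merged region gave a larger gap, 266 against 575 bp, because a merged region grows with each list that adds a peak.

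Most liver-specific regions had a region of another list within 10 kb. No background of other positions was set beside these gaps. Whether they are shorter than the density of the lists would give was not tested. The median gap to the nearest region of another list was 2.14 kb, and 85.0% of them had such a region within 10 kb. Just inside the rule stood 660 liver-specific regions (3.62%) with a region of another list within 100 bp. At the far end, 412 (2.26%) had none within 50 kb. By single lists, the median gap was shortest to E13.5 preSertoli (6.72 kb) and kidney peaks (6.77 kb) and longest to brain peaks (9.75 kb). The ES list, which had the most peaks, stood at 7.16 kb. Distance to the regions open in all 8 lists was longer for liver-specific regions, at a median of 28.5 kb, than for liver regions shared with 1 to 6 other lists, at 19.6 kb.

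Neighbouring liver regions tended to be of the same kind. Along the chromosome, the liver region after a liver-specific one was itself liver-specific in 38.2% of 18218 cases (Wilson interval 37.5 to 38.9). After a remaining liver region it was liver-specific in 22.3% of 50451 cases (22.0 to 22.7). Over all liver regions the share was 26.5%. In runs with gaps of at most 20 kb, 13.6% of the liver-specific regions stood in runs of 5 or more, of which there were 400, and 38.1% stood alone.

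Counted per window of 100 kb, liver-specific regions occurred in 8327 of the 14580 windows with a liver region. Windows with a single one numbered 3795, windows with 2 numbered 2045 and windows with 5 or more numbered 736. The 736 crowded windows held 4458 liver-specific regions. In 1199 windows the liver list had liver-specific regions and nothing else, and this was so in 32 of the crowded windows. Windows with more liver-specific regions also held more shared liver regions, on average 5.46 remaining regions in crowded windows against 2.85 in windows without a liver-specific region. Regions shared with 1 to 6 other lists averaged 3.97 against 1.45 per window. Regions open in all 8 lists averaged 1.29 to 1.60 per window over the windows with liver-specific regions, grouped by their number, and 1.40 in windows without one. Windows without one were counted only where they held a remaining liver region, which raises their averages by construction. Windows with a single liver-specific region are free of this condition. They averaged 1.83 regions shared with 1 to 6 other lists and 1.36 open in all 8.

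Crowded liver-specific regions were somewhat stronger than lone ones. The median percentile was 37.0 in windows with 5 or more and 29.5 in windows with 1. Above the 50th percentile lay 35.4% of the regions in crowded windows (Wilson interval 34.0 to 36.8) and 25.1% of the lone ones (23.8 to 26.5). Windows with 2 stood at 31.9% and windows with 4 at 35.2%, so the step was largest between 1 and 2 regions in a window.

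The share of liver-specific regions in crowded windows depended on the number of regions and on the settings. All 18221 together gave 24.5% in windows with 5 or more. The share was 14.4% with peaks within 500 bp joined and 7.98% with only the peaks above the median of each list. Windows of 50 kb gave 9% and windows of 200 kb 47.8%. With the 10994 strongest specific regions of each list, the number that the smallest set holds, liver stood at 12.0% (Wilson interval 11.4 to 12.6), brain at 13.3% (12.7 to 13.9), heart at 11.1%, kidney at 10.6%, ES cells at 5.88%, skin fibroblasts at 5.75%, and E13.5 preSertoli cells at 3.09%. The interval of E15.5 preSertoli cells, 14.8 to 16.2%, was above all of these. Liver was thus close to the other adult tissues at equal number, with brain above it. It lay above ES cells, which exceeded liver before the numbers were made equal. The cut by strength kept all brain-specific regions but only part of the 18221 liver-specific and 36249 ES-specific ones. The part of this unequal cut in the order of the lists was not tested.

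**Figure D4:**
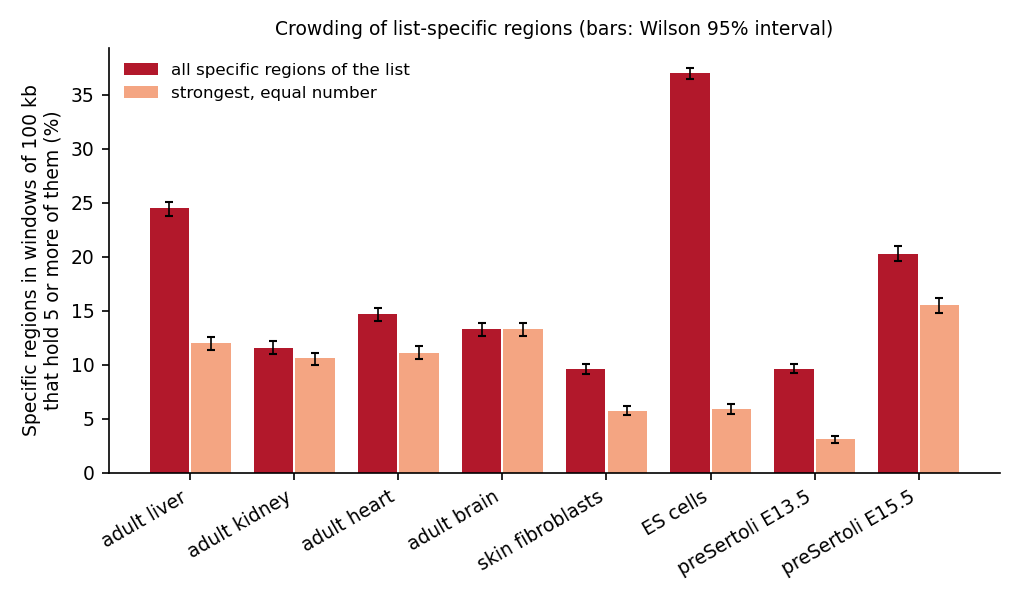
Share of a list's specific regions that lie in windows of 100 kb holding 5 or more of them (vertical axis, %), for adult liver first and the other 7 lists, with Wilson 95% intervals as bars. Dark columns use all specific regions of a list and light columns the 10994 strongest: liver stands at 24.5% in the dark column and 12.0% in the light one, beside 13.3% for brain, 11.1% for heart and 10.6% for kidney in the light columns.

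The densest window lay on chromosome 8 from 19900001 to 20000000 with 13 liver-specific regions. These were weak, with a median percentile of 9.46 and none above 18.4, and the window also held 25 remaining liver regions and 8 regions specific to skin fibroblasts. A window on chromosome 1 (85200001 to 85300000) was alike, with 11 weak liver-specific regions (median percentile 20.5), 23 remaining liver regions and 13 fibroblast-specific ones. Weak peaks and regions specific to the fibroblast list thus stood together with the liver-specific regions in both windows, and their part in the counts was not tested.

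Other dense windows held stronger peaks and few shared regions. On chromosome 15 from 82500001 to 82600000 there were 12 liver-specific regions with a median percentile of 53.5, against 34.6 over all liver-specific regions, and 1 remaining liver region. No other list had a specific region there. On chromosome 6 from 5100001 to 5200000 there were 11 with a median percentile of 60.5, again with 1 remaining liver region. On chromosome 1 from 82100001 to 82200000 there were 11 with a median of 40.5 and no remaining liver region at all. In these 3 windows nearly all open chromatin called in liver was liver-specific.

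The other named windows mixed both kinds. Each of the 5 held 11 liver-specific regions beside 3 to 15 remaining ones. The strongest peak among them, at percentile 89.1, lay in chr9:121800001-121900000, which had 9 remaining regions. The window chr9:46000001-46100000 had 15 remaining regions, the most of the 5, and chr6:17400001-17500000 had 3, the fewest. In chr1:51900001-52000000 there were also 7 ES-specific regions, and in chr10:21100001-21200000 the median percentile was 22.8, the lowest of the 5. The longest runs were 14 regions over 98.8 kb on chromosome 2 (147752852 to 147851635), with a median percentile of 51.6 and only 2 remaining liver regions, and 14 regions over 71.1 kb on chromosome 11 (63651135 to 63722218), whose strongest peak reached percentile 90.4.

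Kidney was the list that most often shared a liver region, with a peak in 84.0% of the remaining regions, followed by heart with 73.4%. Among the 9513 liver regions found in exactly 2 lists, 5434 (57.1%) had their other peak in kidney, against 1603 in heart, 767 in ES cells, 538 in skin fibroblasts and 477 in brain. These liver and kidney regions were stronger than liver-specific ones, with a median percentile of 52.1 in the liver list and 44.5 in the kidney list. Regions shared with heart alone had a median percentile of 32.6 in the liver list, and those shared with ES cells alone 29.8, both below the 34.6 of liver-specific regions. The medians for pairs with skin fibroblasts, E13.5 and E15.5 preSertoli cells and brain lay between 36.7 and 41.2. Kidney pairs were thus the strongest of the 7 kinds of pair. Without the kidney list as a comparator, liver-specific regions would number 23792, or 34.6% of liver regions.

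The share of liver-specific regions varied between chromosomes. It was lowest on chromosome 11 (21.3%), chromosome 17 (22.9%) and chromosome 7 (23.0%), and highest on chromosome 6 (30.2%), chromosome 12 (29.8%) and chromosome 16 (29.5%), with a median of 26.8%. The median percentile of the remaining liver regions was 62.0 on chromosome 11, 61.2 on chromosome 17 and 61.3 on chromosome 7, against a median over chromosomes of 58.0. On these 3 chromosomes a low liver-specific share went with strong shared regions, whereas chromosome 19 had strong shared regions (61.1) and a liver-specific share of 29.4%.

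The X chromosome held similar shares of the liver-specific and of the remaining liver regions, 1.81% (Wilson interval 1.62 to 2.01) against 1.84%. In the other 3 adult tissues the specific regions were rarer on the X. There the shares were 0.989% and 1.65% in kidney, 0.938% and 1.65% in heart, and 0.828% and 1.90% in brain, for specific and remaining regions of each list. The 2 shares were closer in ES cells, at 1.55% and 1.72%, so this was not particular to liver. They were 1.09% and 1.64% in skin fibroblasts, 1.00% and 1.46% at E13.5 and 0.797% and 1.27% at E15.5 in preSertoli cells. The liver share of specific regions was above those of kidney, heart and brain, whose upper counting bounds were 1.19, 1.12 and 1.02%. Such bounds leave out the spread between animals and libraries. Liver-specific regions on the X were the weakest of any chromosome, with a median percentile of 22.2, and the remaining liver regions there were also the weakest (50.8). The labels do not give the sex of these animals.

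Acetylation of histone H3 at lysine 27 (H3K27ac), found at active regulatory elements, was measured in E13.5 preSertoli cells and not in liver. It shows how often a liver-specific region carries an active mark in another cell type. A preSertoli H3K27ac domain overlapped 1067 of 18221 liver-specific regions, or 5.86% (Wilson interval 5.52 to 6.21), and 31.6% of the remaining liver regions, with 24.8% over all liver regions. By rule, liver-specific regions have no preSertoli peak, which separates the classes in advance. Among remaining liver regions that likewise had no preSertoli peak, the share was 8.14% (7.72 to 8.57), and among those with one it was 42.2%. The difference to liver-specific regions was then -2.28 percentage points. With only the peaks above the median of each list, the difference to all remaining regions, including those with a preSertoli peak, was -39.9 points. Among regions above the median of the liver list, 4.92% of the liver-specific ones carried the mark (Wilson interval 4.39 to 5.51). Remaining regions of that strength without a preSertoli peak stood at 7.73% (7.11 to 8.40).

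The mark did not become more frequent with strength among liver-specific regions. The share with H3K27ac was 7.40% in the weakest bin of 10 percentiles, 5.55% between the 40th and 50th percentile and 4.04% (Wilson interval 2.86 to 5.68) between the 80th and 90th. In the strongest bin 4 of 85 carried it. Among the remaining liver regions the share was 16.0% in the weakest bin, 47.0% between the 80th and 90th percentile and 86.1% in the strongest bin, where nearly all were open in all 8 lists. The rule keeps preSertoli peaks out of the liver-specific class at every strength. Remaining regions without a preSertoli peak stood at 8.14% over all strengths and 7.73% above the 50th percentile. The lack of a rise was thus not particular to liver-specific regions.

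**Figure D5:**
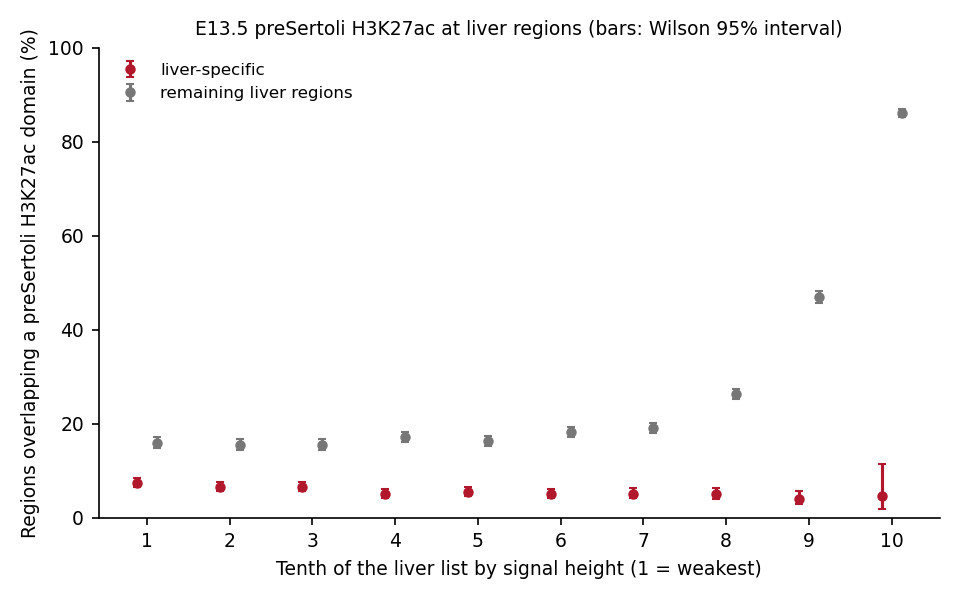
Share of liver regions that overlap an H3K27ac domain of E13.5 preSertoli cells (vertical axis, %) by bin of 10 percentiles of signal height in the liver list (horizontal axis, weakest bin at the left), for liver-specific (red) and remaining liver regions (grey), with Wilson 95% intervals as bars. Liver-specific regions stay between 4.04 and 7.40% in all bins, while the remaining regions climb to 86.1%.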

How the data were processed

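The submitters' processing notes name BWA 0.6.1-r104, SAMtools and bedtools for DNase-seq, and CASAVA 1.8.2, Bowtie and SICER for ChIP-seq, with build mm9 throughout. No peak caller or calling threshold for DNase-seq is given in the sources used here. Each peak as deposited by the authors carries a score (highest 1000), a signal height and a −log10 p (1.30 to 16). The lists have no header, so these units were read from the values. The H3K27ac domains were deposited as 1 list for 2 ChIP libraries, without values, and pooling is not stated.

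Touching or overlapping peaks of all 8 lists were joined with Python 3.11.15, numpy 2.4.6 and pandas 2.3.3. Percentiles are mid-ranks of signal height within a list, and tied ranks were ordered by score. Windows of 100 kb were assigned by the centre of a region's strongest liver peak, and any overlap of the merged region counted for H3K27ac. The code was tested on simulated lists, and figures were drawn with matplotlib 3.10.9. No test was run, since each list is 1 library. Text names the 10 strongest liver-specific and 5 strongest remaining regions, the widest liver-specific one, the 10 densest windows and the longest of the runs, with ties of windows and runs ordered by summed percentile (for runs a choice made after seeing the data). The regions and measures were chosen with earlier results of these data known. RNA-seq, gene names and sequence motifs were not used here.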

Additional observations from a re-analysis of the deposited data

How the results depend on the processing

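The differences in percentile, in the share above the 50th percentile, in width and in H3K27ac stayed negative under every alternative run. The region count and the shares have no sign. The count was taken as moved past a ratio of 1.5, and the other values when they left their counting or median interval. Leaving out each other list in turn gave 18630 to 23792 liver-specific regions, a share of 27.0 to 34.6%, a percentile difference of -24.8 to -21.0, a difference in the share above the 50th percentile of -27.3 to -22.5 points, a width difference of -103 to -86.0 bp, a crowded share of 25.1 to 35.9% and an H3K27ac difference of -28.2 to -25.5 points. The value furthest from the reported one came without kidney each time. With only the stronger peaks of each list (above its median), there were 9270 regions, with a width difference of -96.0 bp, a crowded share of 7.98% and an H3K27ac difference of -39.9. Equal numbers of peaks gave -85.0 bp, 20.6% and -28.3. With liver peaks in place of regions, the share was 25.0%, and the differences were -21.6 in percentile, -24.1 above the 50th percentile, -93.0 bp and -28.3 in H3K27ac. Where another list had to cover 50% of the liver peak, these were 29.5%, -17.9, -19.7, -69.0 bp and -28.5. Joining peaks within 500 bp gave a share of 22.5%, a crowded share of 14.4% and an H3K27ac difference of -27.0. Without both preSertoli lists these were 28.2%, 27.1% and -24.4. Against the other adult tissues alone, the share was 31.1% and the crowded share 30.8%, with differences of -25.1 in percentile, -27.6 above the 50th percentile, -104 bp and -24.6 in H3K27ac. The mean over a region's liver peaks gave a percentile difference of -21.4, and the merged region's width a difference of -309 bp. Windows of 50 and 200 kb gave crowded shares of 9 and 47.8%. Counting a peak's centre gave an H3K27ac difference of -24.7. As alternatives chosen after seeing the data, setting aside regions open in all 8 lists gave -8.32 in percentile, -9.83 above the 50th percentile, -33.0 bp and -9.11 in H3K27ac. Setting aside remaining regions with a preSertoli peak gave -8.32 in percentile and -2.28 in H3K27ac. Except where an alternative removes lists or regions by construction, the cause was not tested. No paired analysis was possible because each DNase-seq list is 1 library and no result comes from a test. Read depth is unknown, so it could not be set beside the number of peaks called.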
